A study of Homo sapiens with 16 samples.

Results

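The genes described here encode chemokines and chemokine receptors. They are the 61 protein-coding genes of the count table whose symbols begin with CCL, CXCL, CX3CL, XCL, CCR, CXCR or CX3CR and go on with a digit, out of 60603 genes in all, of which 19975 are protein coding. The rule uses gene symbols only, and it gave 44 ligands and 17 receptors. RNA was sequenced from 2 established human acute myeloid leukaemia (AML) lines, SKNO-1 and U-937, after 24 h with the vehicle DMSO, with all-trans retinoic acid (ATRA) at 0.1 μM, with Corin at 0.1 μM, or with both agents at 0.1 μM each. Each of the 8 groups has 2 libraries. SKNO-1, which carries the RUNX1::RUNX1T1 fusion, was kept in GM-CSF at 10 ng/mL in all of its groups, DMSO included, while no added cytokine is stated for U-937, a line with monocytic features. ATRA is the ligand of the retinoic acid receptors, and Corin is a synthetic compound that inhibits both the demethylase LSD1 and the class I histone deacetylases of the CoREST repressor complex. Nothing in the labels says that the 2 libraries of a group came from separate cultures, so p-values measure only the spread between these libraries, which may be technical. Each line is a single model, and a difference between SKNO-1 and U-937 is a difference between these 2 lines only. GM-CSF is stated for SKNO-1 alone, so a line and its medium cannot be told apart in any such difference.

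Chemokines are small secreted proteins that guide leukocytes along concentration gradients, and their receptors are G protein-coupled receptors of the cell surface that signal through Gi proteins, phosphoinositide 3-kinase and phospholipase C beta. The CC and CXC families are named for the spacing of their first cysteines, and many of their genes lie in clusters formed by gene duplication. In the myeloid lineage CXCR4 holds immature cells in the bone marrow by binding CXCL12, CXCR1 and CXCR2 draw neutrophils towards CXCL8, and CCR2 and CX3CR1 mark classical and patrolling monocytes. Many chemokine ligands are induced through NF-kappaB or interferon signalling.

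The libraries held 28414461 to 37817309 rounded counts. Of the line markers, RUNX1T1 stood at 106 to 155 CPM (counts scaled to the library total) in the SKNO-1 groups and at no more than 0.0165 CPM in the U-937 groups. HOXA9 was at 0 in all SKNO-1 groups and at 39.2 to 66.6 CPM in U-937. The myeloid genes SPI1 and CD33 were present in all groups, the monocyte gene CD14 reached no more than 0.824 CPM in any group mean, and the neutrophil peroxidase gene MPO stood at no more than 0.344 CPM in U-937. Some markers of other blood and tissue cells were at or near 0. The B cell gene MS4A1 and the globin gene HBB had 0 counts, and CD3E and CDH5 stayed at no more than 0.028 CPM. COL1A1 reached 0.678 CPM and EPCAM 0.0632 CPM. Summed over each list, the T cell genes reached 2.73 CPM in a group, the fibroblast genes 3.07 and the epithelial genes 0.156. The erythroid genes reached 0.0622 and the late neutrophil genes 10.6 CPM. Other lists were higher: the B cell genes reached 25.9 CPM in SKNO-1 and 5.59 CPM in U-937, with 3 of the 4 genes reaching 1 CPM. The endothelial genes reached 27.3 CPM in SKNO-1 and 274 CPM in U-937. Exceptions among single genes included CD2, at 2.66 CPM in U-937 with both agents, and CD79B in SKNO-1 (20.5 to 25.4 CPM). PECAM1, an endothelial marker that myeloid cells also express, stood at 58.9 CPM with DMSO and 274 CPM with both agents in U-937. The 2 SKNO-1 DMSO libraries differed more than any other pair: the SD of their log2 difference over 9132 genes was 0.361, against 0.110 to 0.209 in the other groups. That difference went with the genes' GC content (r = 0.794 across genes, which are not independent replicates). Its part in the SKNO-1 results was not tested beyond leaving each library out and a GC correction. In bulk RNA, fewer cells of a type and less RNA per cell cannot be told apart.

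Most chemokine genes were silent or nearly so. Of the 61 members, 7 had 0 counts in all 16 libraries (CCL11, CCL14, CCL15, CCL15-CCL14, CCL16, CCL21 and CXCL5), another 35 stayed under 1 CPM in every group mean, 5 peaked between 1 and 5 CPM and 14 reached 5 CPM or more. A count of 0 allows up to 3 counts, or 0.0770 to 0.0991 CPM across the libraries, for counting error only. Members with at least 1 count numbered 30 in SKNO-1 with DMSO and 39 with both agents, and 34 and 41 in U-937. Members at 1 CPM or more in SKNO-1 numbered 6 in the DMSO group, 9 for ATRA, 11 for Corin and 12 for the combination, and 9, 12, 11 and 15 in U-937.

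On the scale of the authors' TPM values, which correct for transcript length, the most abundant member differed by line and treatment. With DMSO, SKNO-1 was led by the neutrophil attractant CXCL8 (9.27 and 12.9 TPM in its libraries) and the receptor CXCR4 (9.45 and 11.0 TPM), whose ranges overlapped, followed by the mucosal ligand CCL28 (3.73 and 5.94 TPM). U-937 with DMSO was led by CXCR4 (96.2 and 109 TPM), then by CCL5 (56.7 and 62.8 TPM) and CCL2 (4.76 and 9.17 TPM), with no overlap between these 3. With Corin, CCL2 became the second most abundant member in U-937 at 66.5 and 71.6 TPM, above CCL5 at 55.6 and 54.4 TPM. With ATRA, the eosinophil attractant CCL24 became the second in U-937 at 33.9 and 35.0 TPM, and in SKNO-1 it stood at 10.9 and 11.2 TPM, above CXCR4 at 9.96 and 10.3 TPM. The summed TPM of all receptors was 0.724 and 0.627 times that of all ligands in the SKNO-1 DMSO libraries and 7.91 and 7.62 times in the U-937 libraries with both agents, where CXCR4 alone made up 92.1% and 91.8% of the receptor sum.

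**Figure D1:**
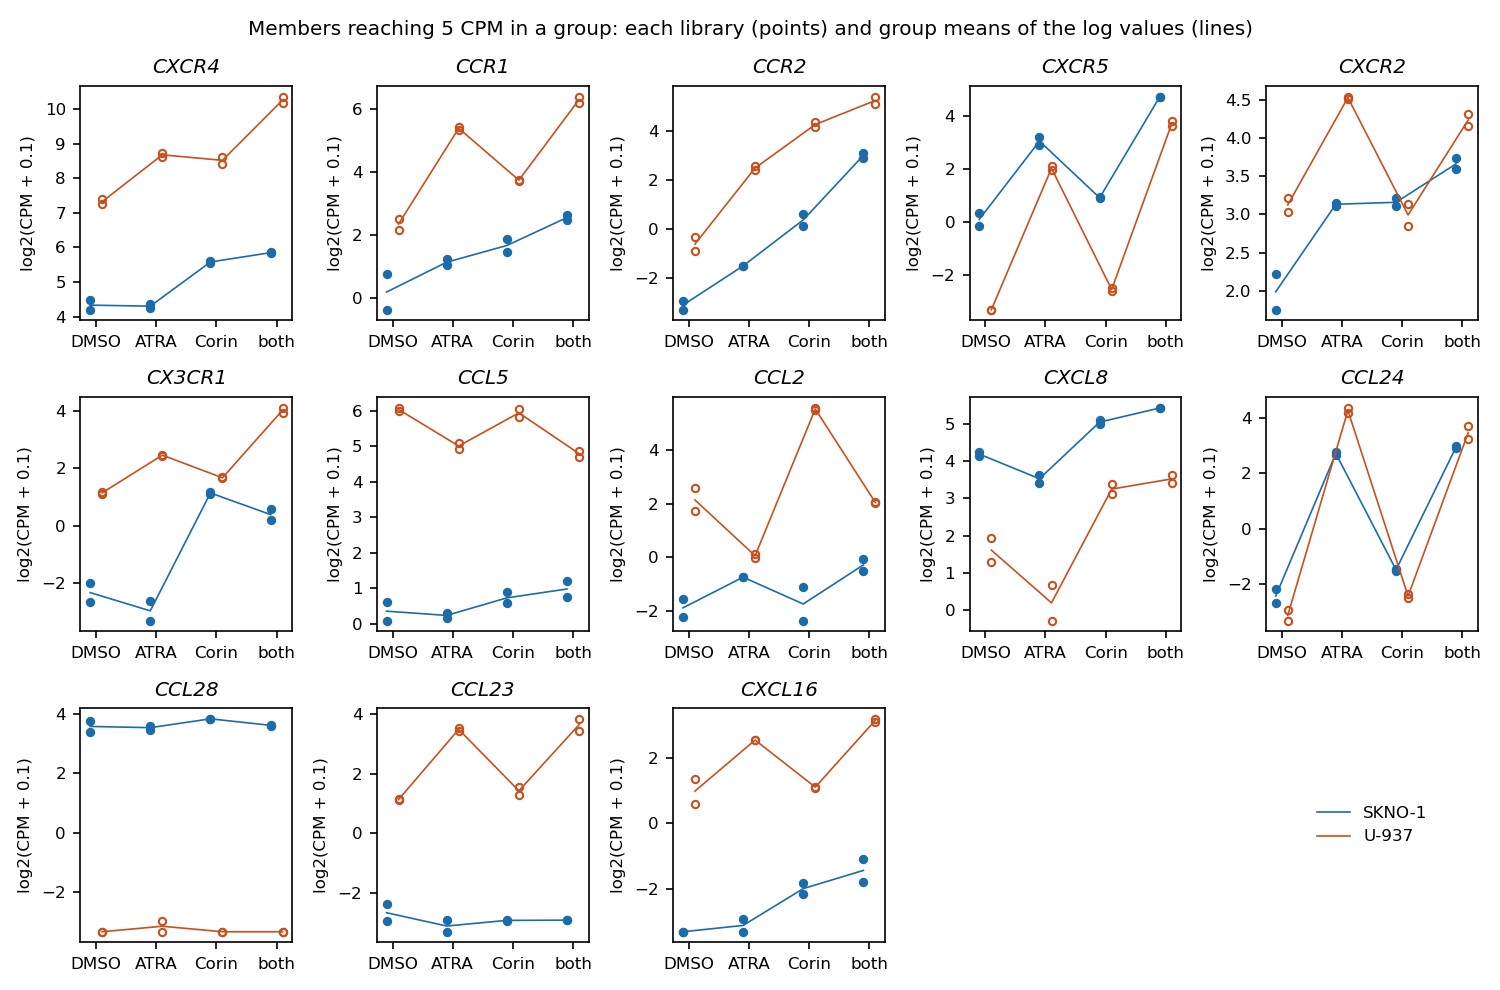
Each point is 1 library, placed by treatment (x axis) and log2(CPM + 0.1) (y axis), for members that reached 5 CPM in a group mean, with receptors first; filled points are SKNO-1, open points U-937, and lines join group means of the log values. The y axes differ between panels; CXCR4 reaches the highest CPM of these members, with U-937 libraries at 1143 and 1308 CPM with both agents, and CCL28 is near the bottom of its axis in all U-937 libraries.

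Gene by gene, each treatment was compared with DMSO within a line by edgeR's quasi-likelihood test, with p-values adjusted over all genes tested and a call at an adjusted p under 0.05. Of the 61 members, 21 passed the filter on low counts in SKNO-1 and 25 in U-937 (29 in either line, 17 in both), and 32 passed in neither. Members that passed only through the groups in which they were high had to differ, so shares and medians of the tested members describe them and support nothing.

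In SKNO-1, ATRA changed few members: 6 rose, among them CCL24, CCR2, CCR3, CXCR2 and CXCR5, and CXCL8 fell. These 7 calls are 33.3% of the 21 tested and 11.5% of all 61 members, beside 6.76% of all genes tested (2.96% higher, 3.79% lower). The median log2 fold change was -0.01 over the tested members and 0.01 over all genes. Corin raised 14 members and lowered 0 (37.9% of all genes tested were called, 20.5% as higher and 17.3% as lower). Of the receptors 11 of 12 tested rose, and of the ligands 3 of 9, CCL24, CXCL6 and CXCL8. With both agents 17 rose and 0 fell (46.7% of all genes called, 24.7% as higher and 22.0% as lower), among them all 12 tested receptors. The median was 2.09 over the tested members against 0.05 over all genes. The 14 calls with Corin are 66.7% of the 21 tested and 23.0% of all 61 members. The 17 with both are 81.0% and 27.9%. For Corin and for both agents, 0 members were lower by edgeR's unadjusted p under 0.05, and DESeq2 called 0 lower as well. The count with ATRA was 3 when only the 4 libraries compared were fitted and 4 without ATRA replicate 2. The share of all genes called with ATRA moved as well, to 29.1% and 24.7% without DMSO replicate 1 or 2, 3.18% and 3.07% without ATRA replicate 1 or 2, and 1.51% with only the 4 libraries. The count with Corin was 9 with only the 4 libraries and 9 or 8 without Corin replicate 1 or 2.

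In U-937, ATRA changed more: 13 rose, among them CCL22, CCL23, CCL24, CCL26, CCR1, CCR2, CCR3, CX3CR1, CXCL16, CXCR2, CXCR4 and CXCR5, and CCL2, CCL5, CCR4 and CXCL8 fell. These 17 are 68.0% of the 25 tested and 27.9% of the 61 members, beside 41.8% of all genes tested (21.7% higher, 20.1% lower). Corin raised 11, with 0 lower (12.9% of all genes called, 8.55% as higher and 4.40% as lower), with 0 lower at edgeR's unadjusted p under 0.05, and DESeq2 called 6 higher and 0 lower. They were the receptors CCR1, CCR2, CCR7, CXCR1 and CXCR4 and the ligands CCL2, CCL3, CCL3L1, CCL26, CXCL8 and CXCL11. Both agents together raised 20 and lowered 2, CCL5 and CCR4 (65.3% of all genes called, 33.1% as higher and 32.2% as lower). The median over the tested members was 2.59 against 0.03 over all genes.

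Between the lines, which share no libraries, the members called as higher overlapped. All 6 that ATRA raised in SKNO-1 were among the 13 it raised in U-937 (100% of the first list, 46.2% of the second), and CXCL8 was lower with ATRA in both. Corin raised 6 in both lines, CCR1, CCR2, CCR7, CXCL8, CXCR1 and CXCR4, which are 42.9% of the SKNO-1 list and 54.5% of the U-937 list. Both agents raised 12 in both lines, or 70.6% and 60.0% of the lists. Of the 29 tested members 17 were tested in both lines, and a member tested in 1 line could not be shared. Over those 17, the shared members were 100% of the SKNO-1 list and 66.7% of the U-937 list with ATRA, 50.0% and 85.7% with Corin, and 80.0% and 100% with both. Over all 15448 genes tested in both lines, the shares of the genes called as higher were 72.0% and 9.86% with ATRA, 25.9% and 58.1% with Corin, and 58.9% and 41.6% with both. The authors' deposited table of DESeq2 comparisons called 4 members with ATRA, 8 with Corin and 13 with both in SKNO-1, and 12, 6 and 20 in U-937. It gave an adjusted p for 14, 18 and 25 members in SKNO-1 and for 17, 12 and 28 in U-937. The share of all genes that the authors called is not given here.

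**Figure D2:**
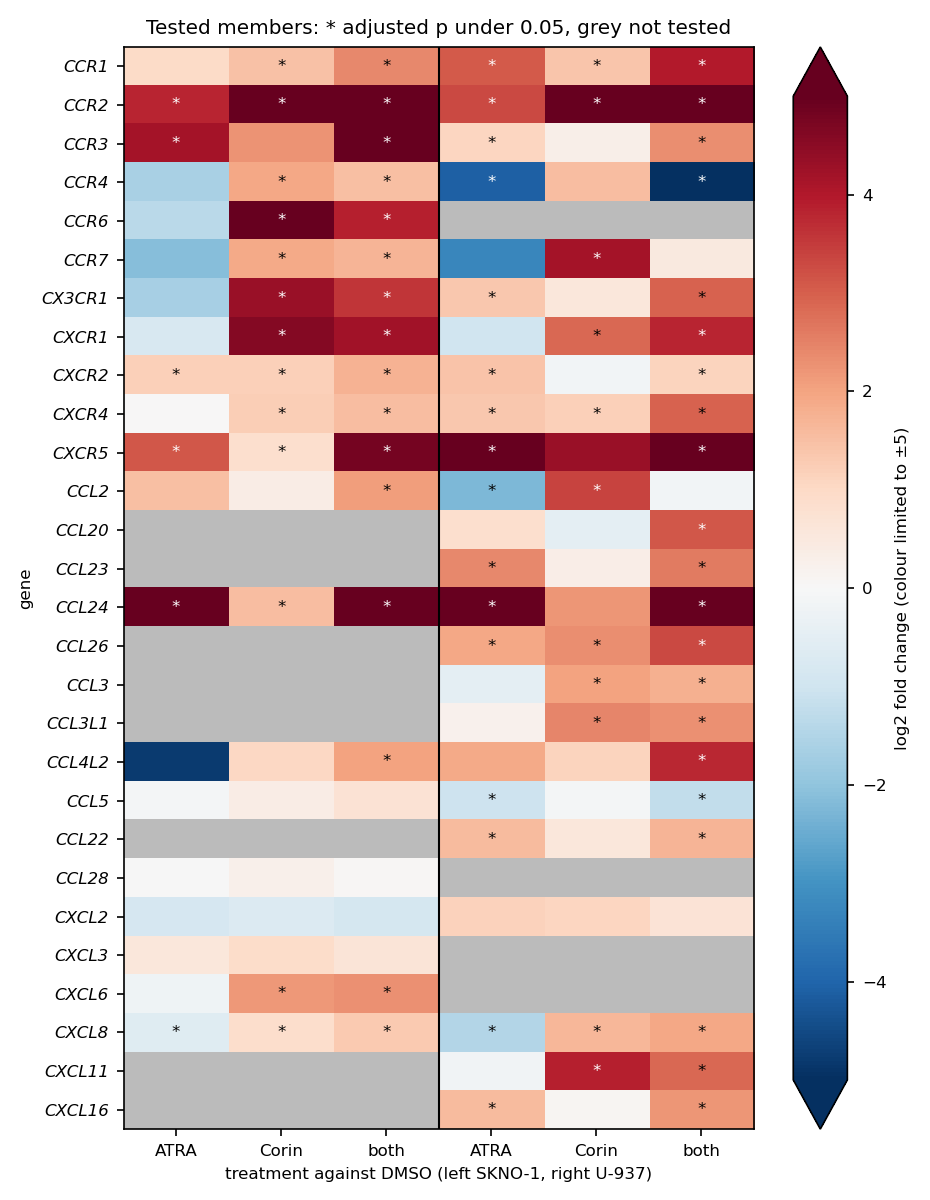
Log2 fold change against DMSO (colour, limited to ±5) of tested members (rows, receptors first) for ATRA, Corin and both agents in SKNO-1 (left 3 columns) and U-937 (right 3 columns); a star marks an adjusted p under 0.05 and grey a member not tested in that line. With both agents the receptor rows are red except in U-937 for CCR4 (blue), CCR7 (pale) and CCR6 (grey); fitted values of members at or near 0 counts with DMSO depend on the model's prior count.

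CXCR4, the receptor of CXCL12, had the highest TPM of the receptors in each of the 8 groups. Its SKNO-1 libraries stood at 22.0 and 18.3 CPM with DMSO, 18.9 and 20.5 with ATRA, 49.1 and 46.4 with Corin and 58.3 and 56.9 with both. ATRA left it within the range of the DMSO libraries (log2 fold change 0.00 ± 0.11 (SE), adjusted p = 0.997). The Corin and combination libraries lay above all others (with Corin log2 fold change 1.25 ± 0.11 (SE), adjusted p = 0.000125; with both log2 fold change 1.56 ± 0.11 (SE), adjusted p = 3.04e-05). In U-937 the values were 152 and 168 CPM with DMSO, 392 and 425 with ATRA, 392 and 341 with Corin and 1143 and 1308 with both. All 3 treatments raised it there, 2.55-fold with ATRA, 2.31-fold with Corin and 7.64-fold with both (log2 fold change 2.94 ± 0.12 (SE), adjusted p = 5.45e-16), with no overlap between treated and DMSO libraries. The combination also exceeded each agent alone in U-937, by 2.99-fold over ATRA (log2 fold change 1.59 ± 0.11 (SE), adjusted p = 4.37e-11) and 3.30-fold over Corin (log2 fold change 1.74 ± 0.12 (SE), adjusted p = 4.87e-12). The ATRA effect itself differed between the lines by 1.39 ± 0.15 on the log2 scale (adjusted p = 2.44e-06).

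CCR2, the receptor of the monocyte attractant CCL2, rose with each treatment in both lines. U-937 libraries held 0.695 and 0.426 CPM with DMSO, 5.78 and 5.28 with ATRA, 20.6 and 18.0 with Corin and 34.4 and 42.7 with both. Each step was called: 9.80-fold over DMSO with ATRA (log2 fold change 3.28 ± 0.23 (SE), adjusted p = 4.59e-11), 34.4-fold with Corin (log2 fold change 5.09 ± 0.21 (SE), adjusted p = 1.66e-14) and 67.5-fold with both (log2 fold change 6.09 ± 0.20 (SE), adjusted p = 1.49e-17). SKNO-1 had 1 count over its 2 DMSO libraries, and its CPM were 0.0300 and 0 CPM with DMSO, 0.246 and 0.250 with ATRA, 0.989 and 1.42 with Corin and 7.40 and 8.57 with both. The ratio with both agents was 550.3, with a 95% counting interval of 98.3 to 21778 that covers counting error only, and the combination exceeded Corin alone 6.65-fold (log2 fold change 2.77 ± 0.25 (SE), adjusted p = 0.000448). The SKNO-1 call with ATRA (adjusted p = 0.0245) ended without either ATRA library or either combination library (adjusted p 0.0514 to 0.125) and in DESeq2.

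CCR1, which binds CCL3, CCL5 and CCL23, rose further in U-937 than in SKNO-1 with ATRA and with both agents. In the annotation it overlaps CCR3 on the opposite strand. In U-937 its levels were 4.41 and 5.64 CPM with DMSO, 42.9 and 40.1 with ATRA, 13.4 and 13.0 with Corin and 72.8 and 83.1 with both. ATRA raised it (log2 fold change 3.05 ± 0.13 (SE), adjusted p = 5.45e-15), as did Corin (log2 fold change 1.40 ± 0.13 (SE), adjusted p = 3.96e-08) and both (log2 fold change 3.96 ± 0.13 (SE), adjusted p = 1.33e-17). No treated library overlapped the DMSO pair. In SKNO-1 the gene was lower throughout, at 1.59 and 0.676 CPM with DMSO, 1.97 and 2.25 with ATRA, 2.67 and 3.55 with Corin and 6.10 and 5.45 with both. ATRA did not pass the test in SKNO-1 (log2 fold change 0.94 ± 0.36 (SE), adjusted p = 0.219). Corin did (log2 fold change 1.46 ± 0.36 (SE), adjusted p = 0.0139), although not without Corin replicate 2 (adjusted p = 0.0994) or with only the 4 libraries compared. The combination raised it 5.16-fold (log2 fold change 2.40 ± 0.35 (SE), adjusted p = 0.000957).

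CCR3, the eotaxin receptor for CCL24 and CCL26, is the gene that CCR1 overlaps. With DMSO its SKNO-1 mean was 0.0282 CPM (2 counts over both libraries), and it reached 0.571 CPM with ATRA, 0.153 CPM with Corin and 2.51 CPM with both. The ratio over DMSO was 19.6 with ATRA (95% counting interval 5.07 to 167; adjusted p = 0.0125, lost without either ATRA library at 0.0631 and 0.0815 and with only the 4 libraries compared at 0.0906) and 86.7 with both (23.6 to 722; adjusted p = 0.000141). The U-937 means were 0.482, 1.04, 0.588 and 2.45 CPM in the same order, and the rise with both agents was 5.02-fold (log2 fold change 2.33 ± 0.35 (SE), adjusted p = 3.18e-06). The U-937 call with ATRA was lost without DMSO replicate 2 or ATRA replicate 2 (adjusted p 0.159 to 0.197) and in DESeq2. For every 100 CCR1 counts there were 2.60 CCR3 counts with DMSO (from 2 CCR3 counts), 26.9 with ATRA, 4.90 with Corin and 43.7 with both in SKNO-1, and 9.75, 2.49, 4.48 and 3.15 in U-937. The part of reads shared between CCR1 and CCR3 in the counts of either gene was not tested.

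CXCR5, the receptor that draws lymphocytes to CXCL13 in B cell follicles, rose with ATRA in both lines. In SKNO-1 it stood at 1.17 and 0.789 CPM with DMSO, 7.29 and 8.99 with ATRA, 1.74 and 1.79 with Corin and 26.0 and 26.1 with both. ATRA raised it 8.41-fold (log2 fold change 3.09 ± 0.20 (SE), adjusted p = 9.1e-05) and both agents 26.7-fold (log2 fold change 4.78 ± 0.20 (SE), adjusted p = 2.64e-06), and the combination exceeded ATRA alone 3.18-fold (log2 fold change 1.69 ± 0.16 (SE), adjusted p = 0.000154). The small rise with Corin (log2 fold change 0.85 ± 0.23 (SE), adjusted p = 0.0205) ended without DMSO replicate 2 or either Corin library (adjusted p 0.0667 to 0.0973) and with only the 4 libraries compared. U-937 had 0 counts with DMSO, and its values were 0 and 0 CPM with DMSO, 3.73 and 4.14 with ATRA, 0.0770 and 0.0628 with Corin and 12.2 and 13.6 with both. They were at least 83.2-fold higher with ATRA and 273-fold higher with both (adjusted p = 3.91e-12 and 3.25e-15). BCL9L, which overlaps it on the opposite strand, stood at 1.54, 2.64, 2.44 and 5.61 CPM in SKNO-1 and 1.56, 4.02, 1.95 and 3.27 CPM in U-937 with DMSO, ATRA, Corin and both; its part in the CXCR5 counts was not tested.

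CCL24, the ligand eotaxin-2, is another member that went from near 0 to several CPM with ATRA in both lines. SKNO-1 libraries held 0.120 and 0.0564 CPM with DMSO, 6.18 and 6.77 with ATRA, 0.270 and 0.247 with Corin and 7.49 and 7.87 with both. The rise over DMSO was 74.5-fold with ATRA (log2 fold change 6.19 ± 0.27 (SE), adjusted p = 1.61e-05) and 88.2-fold with both (log2 fold change 6.45 ± 0.27 (SE), adjusted p = 2.39e-06). The call with Corin (adjusted p = 0.0397) ended in DESeq2, with no low-count filter, and without DMSO replicate 2 or either Corin library (adjusted p 0.101 to 0.227). In U-937, with 1 count over the DMSO group, the values were 0.0302 and 0 CPM with DMSO, 17.9 and 20.6 with ATRA, 0.0770 and 0.0943 with Corin and 9.32 and 13.0 with both. Its ratio over DMSO was 1220.4 with ATRA (95% counting interval 219 to 48239) and 699.7 with both (125 to 27674). Here adding Corin to ATRA lowered it (log2 fold change -0.78 ± 0.17 (SE), adjusted p = 0.000537; 0.573 times the ATRA level). Its neighbour on chromosome 7, CCL26 (eotaxin-3), rose in U-937 with both agents from 4 counts over the DMSO group to 42 (log2 fold change 3.29 ± 0.70 (SE), adjusted p = 0.000186). Its calls with ATRA (adjusted p = 0.0454) and Corin (adjusted p = 0.0382) ended when any 1 of 7 and any 1 of 5 libraries was left out (up to 0.207 and 0.251). The ATRA call also ended under each of DESeq2, library totals, the unfiltered fit and the GC correction.

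The promoters of 4 members whose values the results turn on are shown for reference: CXCR5 and CCL24, which ATRA raised in both lines, CXCL8, which the agents moved in opposite directions, and CCR2, which each agent raised in both lines. They are RefSeq sequences of GRCh38.p14, 250 bases before to 50 bases after the RefSeq start, read in the direction of the gene. RefSeq holds 43 of the 61 members in this table. Capitals mark matches to an NF-kappaB-like motif, GGG and CC with any 5 bases between them, on either strand and including overlapping matches.
CXCR5 (chr11:118893142-118893441, plus strand): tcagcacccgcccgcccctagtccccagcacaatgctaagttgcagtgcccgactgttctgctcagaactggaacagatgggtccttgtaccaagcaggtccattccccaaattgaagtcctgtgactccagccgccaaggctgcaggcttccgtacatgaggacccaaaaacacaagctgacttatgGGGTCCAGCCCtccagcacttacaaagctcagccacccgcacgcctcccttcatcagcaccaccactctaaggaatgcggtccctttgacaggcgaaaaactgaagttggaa
CCL24 (chr7:75823323-75823622, minus strand): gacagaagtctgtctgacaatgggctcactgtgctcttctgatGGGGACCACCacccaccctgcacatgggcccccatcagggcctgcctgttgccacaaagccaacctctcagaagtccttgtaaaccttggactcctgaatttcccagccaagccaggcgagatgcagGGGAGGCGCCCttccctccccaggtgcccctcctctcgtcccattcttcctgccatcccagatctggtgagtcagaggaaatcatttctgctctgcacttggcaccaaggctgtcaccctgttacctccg
CXCL8 (chr4:73740319-73740618, plus strand): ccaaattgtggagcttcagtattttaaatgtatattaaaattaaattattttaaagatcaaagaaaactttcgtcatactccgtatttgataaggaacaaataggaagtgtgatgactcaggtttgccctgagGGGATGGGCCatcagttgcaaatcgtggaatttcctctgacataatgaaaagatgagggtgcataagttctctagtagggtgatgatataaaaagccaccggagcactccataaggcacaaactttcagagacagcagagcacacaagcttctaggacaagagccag
CCR2 (chr3:46353861-46354160, plus strand): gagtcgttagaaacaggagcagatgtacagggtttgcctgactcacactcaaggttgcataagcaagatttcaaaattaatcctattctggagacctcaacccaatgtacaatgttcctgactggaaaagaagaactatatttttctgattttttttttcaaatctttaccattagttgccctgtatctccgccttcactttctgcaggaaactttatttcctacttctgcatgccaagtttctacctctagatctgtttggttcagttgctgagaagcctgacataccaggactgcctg
The matches begin at -62 and -61 in CXCR5, at -207, -80 and -79 in CCL24 and at -117 in CXCL8, counted from the start, and the CCR2 window has none. Such a match is common: 58.0% of all 27305 promoters in the table have at least 1, and 21 of the 43 members do. Direct repeats of GGTCA with 5 or 2 bases between the copies occurred in 0.0696% and 0.125% of all promoters. They occurred in 0 of the 43 members. These letters are not the full sites of retinoic acid receptors, which were not searched for, so the 0 does not bear on them. The interferon-type pair of GAAA with 2 bases between the copies occurred in 3.65% of all promoters and in CCR6, CXCL9 and CXCL10. A match or its lack describes only these letters in these windows, searched on both strands.

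CXCR2, the main CXCL8 receptor, was among the few members present at several CPM in both lines with DMSO. SKNO-1 libraries stood at 3.27 and 4.57 CPM with DMSO, 8.80 and 8.54 with ATRA, 9.17 and 8.50 with Corin and 13.2 and 12.0 with both. Each treatment raised it over DMSO there, 2.20-fold with ATRA (log2 fold change 1.18 ± 0.16 (SE), adjusted p = 0.00349), 2.24-fold with Corin (log2 fold change 1.18 ± 0.16 (SE), adjusted p = 0.00104) and 3.19-fold with both (log2 fold change 1.73 ± 0.16 (SE), adjusted p = 0.000112). With ATRA the call was lost when only the 4 libraries compared were fitted (adjusted p = 0.0803). U-937 held 8.07 and 9.21 CPM with DMSO, 22.8 and 23.2 with ATRA, 8.70 and 7.10 with Corin and 17.8 and 19.7 with both. There ATRA raised it (log2 fold change 1.41 ± 0.13 (SE), adjusted p = 9.85e-09), and Corin did not pass the test (log2 fold change -0.12 ± 0.14 (SE), adjusted p = 0.65). The Corin effect differed between the lines by -1.29 ± 0.22 on the log2 scale (adjusted p = 0.000605). Its close paralogue and neighbour CXCR1 stayed under 1 CPM, with group sums of 2 counts with DMSO and 37 with both in SKNO-1 (log2 fold change 4.19 ± 0.88 (SE), adjusted p = 0.00463) and 2 and 32 in U-937 (log2 fold change 3.82 ± 0.86 (SE), adjusted p = 0.000308). Reads shared between such copies are divided by estimate, so its values are uncertain. Its U-937 call with Corin (adjusted p = 0.0355) ended without any 1 of the 8 libraries (0.0543 to 0.201) and with no low-count filter.

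CX3CR1, the fractalkine receptor, was called with Corin in SKNO-1 and with ATRA in U-937. In SKNO-1 its values were 0.150 and 0.0564 CPM with DMSO, 0.0615 and 0 with ATRA, 2.07 and 2.13 with Corin and 1.39 and 1.04 with both. Corin raised it 20.6-fold (log2 fold change 4.32 ± 0.51 (SE), adjusted p = 0.000466), and the ATRA libraries overlapped the DMSO pair, with 2 counts in all. U-937 libraries held 2.15 and 2.06 CPM with DMSO, 5.33 and 5.46 with ATRA, 3.10 and 3.05 with Corin and 15.3 and 17.2 with both. ATRA raised it 2.56-fold in U-937 (log2 fold change 1.35 ± 0.19 (SE), adjusted p = 2.6e-06). Corin did not pass the test (log2 fold change 0.55 ± 0.19 (SE), adjusted p = 0.0643), and both agents raised it 7.68-fold (log2 fold change 2.95 ± 0.18 (SE), adjusted p = 8.57e-13). The difference between lines was called for Corin (-3.77 ± 0.48 log2, U-937 minus SKNO-1, adjusted p = 2.1e-05) and for ATRA (3.04 ± 0.92, adjusted p = 0.02), the latter lost without SKNO-1 DMSO replicate 1 or ATRA replicate 2 (adjusted p 0.332 and 0.212).

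The lymphoid receptors CCR4, CCR6 and CCR7 were low throughout. CCR6, which binds CCL20, had group means of 0.0423, 0.0154, 2.09 and 0.666 CPM in SKNO-1 with DMSO, ATRA, Corin and both, and 1 count in all of U-937. Its ratio over DMSO was 47.8 with Corin (95% counting interval 16.02 to 235; adjusted p = 0.000539). A same-strand gene without a symbol, ENSG00000272980, overlaps CCR6 and stood at 4.53, 3.21, 7.44 and 3.95 CPM in the same SKNO-1 groups; its part was not tested. CCR7, the lymph node homing receptor, had means of 0.278, 0.0555, 1.05 and 0.868 CPM in SKNO-1. There the Corin call (adjusted p = 0.0224) ended without either Corin library (0.0814 to 0.119) and the call with both agents (0.0318) without any 1 of 5 libraries (0.0526 to 0.182). Its means in U-937 were 0.0328, 0, 0.629 and 0.0426 CPM, where the Corin call (adjusted p = 0.00278) ended without DMSO replicate 1 (0.0841). CCR4, a receptor of CCL17 and CCL22, fell in U-937 and rose in SKNO-1 with both agents. In U-937 it had 19 counts over the DMSO libraries, 1 with ATRA, 62 with Corin and 0 with both, at least 6.52-fold lower than DMSO with both (adjusted p = 0.000261). Its fall with ATRA in U-937 was also called (adjusted p = 0.0017), and Corin did not pass the test (adjusted p = 0.0579). In SKNO-1 its counts were 13, 4, 48 and 34. The call with Corin (adjusted p = 0.0155) ended without either Corin library (0.0649 to 0.0885) and in DESeq2. The call with both agents (adjusted p = 0.0385) ended without any 1 of 6 libraries (up to 0.291).

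CXCL8, the ligand of CXCR1 and CXCR2, moved down with ATRA and up with Corin in both lines. SKNO-1 libraries held 17.6 and 18.8 CPM with DMSO, 12.3 and 10.7 with ATRA, 34.4 and 31.8 with Corin and 42.8 and 43.4 with both. ATRA lowered it to 0.629 times DMSO (log2 fold change -0.62 ± 0.10 (SE), adjusted p = 0.007), a call lost without ATRA replicate 2 (adjusted p = 0.0559) and with only the 4 libraries compared (0.137). Corin raised it 1.82-fold (log2 fold change 0.87 ± 0.10 (SE), adjusted p = 0.000357) and both agents 2.37-fold (log2 fold change 1.29 ± 0.10 (SE), adjusted p = 3.63e-05). In U-937 the values were 2.36 and 3.70 CPM with DMSO, 0.720 and 1.50 with ATRA, 8.57 and 10.4 with Corin and 10.6 and 12.4 with both. ATRA gave 0.363 times DMSO (log2 fold change -1.46 ± 0.31 (SE), adjusted p = 0.00116), Corin 3.12-fold (log2 fold change 1.65 ± 0.25 (SE), adjusted p = 0.000345) and both 3.80-fold (log2 fold change 1.93 ± 0.25 (SE), adjusted p = 6.38e-06). In both lines the combination libraries stood above all DMSO and ATRA libraries.

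CCL2, the main monocyte attractant, also moved in opposite directions with the 2 agents, in U-937. There it stood at 3.17 and 5.83 CPM with DMSO, 0.879 and 0.997 with ATRA, 48.0 and 44.9 with Corin and 3.95 and 4.06 with both. ATRA lowered it 4.76-fold (log2 fold change -2.26 ± 0.26 (SE), adjusted p = 4.43e-06) and Corin raised it 10.5-fold (log2 fold change 3.38 ± 0.19 (SE), adjusted p = 4.89e-09), and no library of these groups overlapped DMSO. With both agents the libraries lay between the 2 DMSO values (log2 fold change -0.15 ± 0.22 (SE), adjusted p = 0.547) and 11.6-fold below Corin alone (log2 fold change -3.53 ± 0.20 (SE), adjusted p = 2.07e-10). SKNO-1 held far less, 0.240 and 0.113 CPM with DMSO, 0.492 and 0.499 with ATRA, 0.360 and 0.0927 with Corin and 0.601 and 0.857 with both. There both agents raised it (log2 fold change 2.09 ± 0.59 (SE), adjusted p = 0.0203), a call lost without combination replicate 2 (adjusted p = 0.119).

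CCL5, which binds CCR1 and CCR3, was the most abundant ligand of U-937 with DMSO. U-937 libraries stood at 63.2 and 67.9 CPM with DMSO, 30.2 and 33.9 with ATRA, 66.7 and 56.3 with Corin and 26.0 and 29.2 with both. ATRA lowered it to 0.489 times DMSO (log2 fold change -1.03 ± 0.11 (SE), adjusted p = 6.36e-08). The Corin libraries overlapped the DMSO pair (log2 fold change -0.09 ± 0.11 (SE), adjusted p = 0.669). With both it stood at 0.420 times DMSO (log2 fold change -1.24 ± 0.11 (SE), adjusted p = 8.7e-10). In SKNO-1 the values were 1.44 and 0.958 CPM with DMSO, 1.02 and 1.14 with ATRA, 1.74 and 1.39 with Corin and 1.58 and 2.20 with both. No treatment passed the test against DMSO (with both, log2 fold change 0.71 ± 0.29 (SE), adjusted p = 0.0762).

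CCL23, a ligand of CCR1, and CXCL16, the ligand of CXCR6, rose with ATRA in U-937. CCL23 stood at 2.05 and 2.13 CPM with DMSO, 10.8 and 11.6 with ATRA, 2.85 and 2.36 with Corin and 10.8 and 14.4 with both there. The ATRA and combination libraries did not overlap the other groups (ATRA log2 fold change 2.42 ± 0.19 (SE), adjusted p = 5.52e-10; both log2 fold change 2.59 ± 0.20 (SE), adjusted p = 3.34e-11). Its SKNO-1 libraries held 0 to 3 counts each and are 0.0900 and 0.0282 CPM with DMSO, 0.0308 and 0 with ATRA, 0.0300 and 0.0309 with Corin and 0.0316 and 0.0306 with both. CXCL16 in U-937 stood at 1.42 and 2.49 CPM with DMSO, 5.73 and 5.81 with ATRA, 2.08 and 2.04 with Corin and 9.15 and 8.56 with both. It was 2.98-fold higher with ATRA (log2 fold change 1.56 ± 0.23 (SE), adjusted p = 5.44e-06) and 4.59-fold with both (log2 fold change 2.19 ± 0.23 (SE), adjusted p = 8.26e-09). SKNO-1 CXCL16 was not tested within the line, at 0 and 0 CPM with DMSO, 0.0308 and 0 with ATRA, 0.180 and 0.124 with Corin and 0.190 and 0.367 with both. MED11 overlaps CXCL16 on the opposite strand at 4.86, 4.90, 5.31 and 5.11 CPM in U-937 with DMSO, ATRA, Corin and both, and ZMYND15 at 0.219, 0.644, 0.134 and 1.12 CPM; their part was not tested.

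CCL28, a mucosal ligand of CCR10 and CCR3, was detected almost only in SKNO-1. SKNO-1 libraries stood at 10.4 and 13.3 CPM with DMSO, 11.9 and 10.9 with ATRA, 14.1 and 14.0 with Corin and 11.9 and 12.2 with both. No treatment passed the test (with both, log2 fold change 0.08 ± 0.13 (SE), adjusted p = 0.651). U-937 values were 0 and 0 CPM with DMSO, 0 and 0.0293 with ATRA, 0 and 0 with Corin and 0 and 0 with both, which is 1 count in 8 libraries. With DMSO the level was at least 252-fold lower than in SKNO-1 (adjusted p = 4.65e-12).

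The remaining called ligands were low. CCL3 had 0 counts in SKNO-1 and group means of 0.683, 0.489, 2.71 and 2.34 CPM in U-937 with DMSO, ATRA, Corin and both. It was 4.03-fold up with Corin (log2 fold change 1.99 ± 0.31 (SE), adjusted p = 6.56e-05) and 3.46-fold with both (log2 fold change 1.78 ± 0.32 (SE), adjusted p = 2.71e-05). CCL20, the ligand of CCR6, had means of 0.254, 0.458, 0.172 and 2.20 CPM in the same U-937 groups, and only the combination passed the test (log2 fold change 3.11 ± 0.46 (SE), adjusted p = 2.67e-06). Under 1 CPM, CCL22 rose with ATRA and with both agents in U-937, CCL3L1 with Corin and with both, CXCL6 with Corin and with both in SKNO-1, and CCL4L2 with both in each line. CXCL11 rose in U-937 from 3 counts over the DMSO group to 53 with Corin (ratio 15.9, 95% counting interval 5.14 to 79.4; adjusted p = 0.000336) and 24 with both. ART3, which overlaps CXCL11 on the opposite strand, stood at 7.20, 2.18, 46.7 and 28.9 CPM in U-937 with DMSO, ATRA, Corin and both; its part in the CXCL11 counts was not tested. CCL3L1 and CCL4L2 are near-identical copies of CCL3 and CCL4, and their counts are uncertain. Several of these calls ended without 1 library: CXCL6 with Corin without either Corin library (adjusted p 0.0569 to 0.0835) or with only the 4 libraries compared, and CCL3L1 with Corin without DMSO replicate 2 (0.0534). So did SKNO-1 CCL4L2 with both without DMSO replicate 2 or either combination library (0.0894 to 0.108) or in DESeq2.

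Next, Corin was added to ATRA and ATRA to Corin. In SKNO-1, the combination against ATRA alone raised 16 members, including all 12 tested receptors, and lowered 0 (44.8% of all genes called, 23.0% as higher and 21.8% as lower). Against Corin alone it raised 6, among them CCL24, CCR2, CCR3, CXCL8 and CXCR5, and lowered 0 (10.4% called, 4.82% as higher and 5.60% as lower). Leaving out either DMSO library raised the second count to 11, with 1 lower, and it was 11 with no low-count filter or after GC correction and 12 with only the 4 libraries compared. The share of all genes called against Corin was 38.9% without either DMSO library, 43.6% with only the 4 libraries, and 2.19% to 2.56% without 1 Corin or combination library. At edgeR's unadjusted p under 0.05, 0 members were lower against ATRA and 1 against Corin, and DESeq2 called 0 lower in both. The CXCL8 call against Corin alone (adjusted p = 0.028) ended without any 1 of the 4 Corin and combination libraries (0.149 to 0.201) and with library totals only. In U-937, the combination against ATRA raised 16 and lowered 1, CCL24 (47.4% of all genes called, 22.5% as higher and 24.8% as lower). Against Corin it raised 14 and lowered 4, CCL2, CCL5, CCR4 and CCR7 (60.5% called, 29.9% as higher and 30.6% as lower). Comparisons with a shared group share its libraries, so their calls are not independent.

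An interaction term tested whether the log2 change with both agents equalled the ATRA and Corin changes added together. In SKNO-1 only CXCL8 departed, by 1.05 ± 0.14 above the sum (adjusted p = 0.0258), beside 0.463% of all genes tested (0.315% above the sum, 0.149% below). The call ended without any 1 of the 6 treated libraries (adjusted p 0.079 to 0.206), and 5 members departed without DMSO replicate 2, in a fit that called 30.9% of all genes. The share of all genes was 6.32% without DMSO replicate 1 and 0.0384% to 0.109% without 1 treated library. In U-937 6 members departed, or 24.0% of the 25 tested, near the 23.4% of all genes (8.09% above, 15.3% below). CXCL8 (1.74 ± 0.38, adjusted p = 0.00339), CCL20 (2.73 ± 0.75, adjusted p = 0.00858) and CX3CR1 (1.05 ± 0.25, adjusted p = 0.00332) lay above the sum. CCR2 (-2.29 ± 0.28, adjusted p = 9.72e-07), CCL2 (-1.28 ± 0.35, adjusted p = 0.0136) and CCR1 (-0.49 ± 0.17, adjusted p = 0.0439) lay below it. Without 1 library, CCL20 ended without DMSO replicate 2 (adjusted p = 0.0992), CCL2 without ATRA replicate 2 (0.0732) and CCR1 without any 1 of 6 (up to 0.299). For CXCL8 the single log2 changes in U-937, -1.46 and 1.65, sum to 0.19, and the combination stood at 1.93; for CCL2, -2.26 and 3.38 sum to 1.12, and the combination stood at -0.15.

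**Figure D3:**
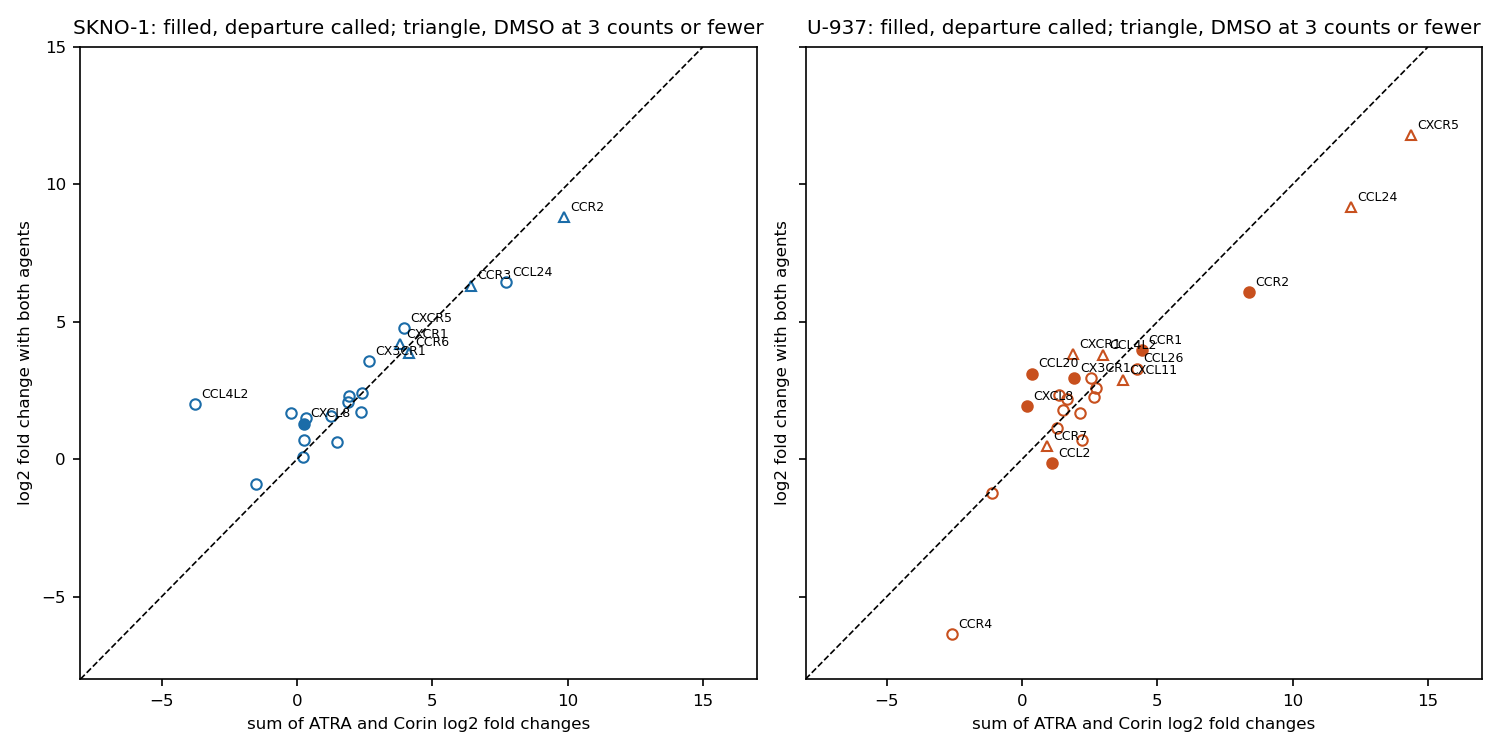
Points are tested members, placed by the sum of its ATRA and Corin log2 fold changes (x axis) and its log2 fold change with both agents (y axis), in SKNO-1 (left) and U-937 (right); the dashed line is equality, filled symbols mark a called departure and triangles a DMSO group at 3 counts or fewer. CXCL8 is the single filled SKNO-1 point, and in U-937 3 filled points lie above and 3 below the line.

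The DMSO levels of the lines differed for 20 of 29 members tested over all 16 libraries, 14 higher and 6 lower in U-937. These are 69.0% of the tested members, near the 64.8% of all genes (31.7% higher, 33.1% lower). CXCR4 was 7.94-fold higher in U-937 (log2 fold change 2.99 ± 0.11 (SE), adjusted p = 2.4e-14) and CCL5 54.9-fold (log2 fold change 5.77 ± 0.18 (SE), adjusted p = 1.75e-15). CCL2 was 25.5-fold higher (log2 fold change 4.65 ± 0.40 (SE), adjusted p = 1.12e-08) and CX3CR1 20.7-fold (log2 fold change 4.32 ± 0.39 (SE), adjusted p = 8.39e-09). CXCL8 was 6.06-fold lower in U-937 (log2 fold change -2.59 ± 0.21 (SE), adjusted p = 6.69e-09), and CXCL2, CXCL3, CCL28, CCR7 and CXCR5 were lower too. The CCL20 call (adjusted p = 0.0109) ended without SKNO-1 or U-937 DMSO replicate 2 (0.0623 and 0.0678), and the CCR7 call (0.0153) without SKNO-1 or U-937 DMSO replicate 1 (0.0556 and 0.142).

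The ATRA effect differed between the lines for 11 members, 8 more positive in U-937 and 3 less (19.4% of all genes called, 10.6% more positive and 8.81% less). The Corin effect differed for 4, 1 and 3 (12.8% called, 5.28% and 7.49%). The effect of both agents differed for 12, 5 and 7 (40.6% called, 17.9% and 22.7%). For ATRA, Corin and both agents these are 37.9%, 13.8% and 41.4% of the 29 tested members. With Corin and with both they lie near the shares of all genes. The ATRA effect was more positive in U-937 for CXCR4 and CCR1 and less positive for CCL2 by -3.74 ± 0.63 (adjusted p = 0.000302). With both agents CCL5 differed by -1.91 ± 0.26 (adjusted p = 8.63e-06), having fallen in U-937 and not passed the test in SKNO-1. Without SKNO-1 DMSO replicate 1 the counts were 7, 2 and 7, and the ATRA count was also 7 without SKNO-1 ATRA replicate 2.

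**Figure D4:**
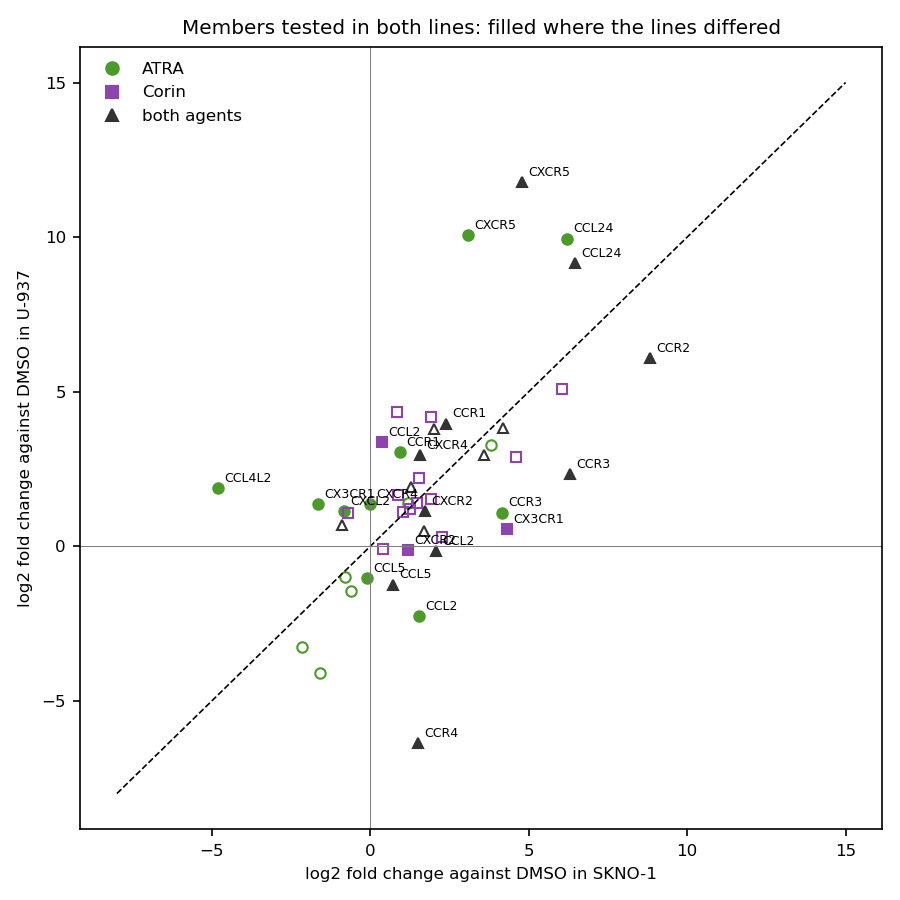
Members tested in both lines, placed by their log2 fold change against DMSO in SKNO-1 (x axis) and in U-937 (y axis) for ATRA (circles), Corin (squares) and both agents (triangles); the dashed line is equality, and filled, named symbols mark a called difference between the lines. Most points lie in the upper right, where both values are positive; of the named points, CCL2 with ATRA, CXCR2 with Corin, and CCR4, CCL5 and CCL2 with both agents lie below the horizontal 0 line and to the right of the vertical one.

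Other genes of the chemokine system were read from lists of their own. Of 26 tested genes that carry chemokine receptor signals, 4 rose and 4 fell with ATRA, 5 and 4 with Corin, and 9 and 5 with both in SKNO-1, and 16 and 1, 6 and 0, and 20 and 2 in U-937. With ATRA, Corin and both these are 30.8%, 34.6% and 53.8% of the list in SKNO-1, where 6.76%, 37.9% and 46.7% of all genes were called. In U-937 they are 65.4%, 23.1% and 84.6%, beside 41.8%, 12.9% and 65.3%. The median log2 change with both agents stood at 0.06 for SKNO-1 and 0.96 for U-937, against 0.05 and 0.03 over all genes. GNG2, a G protein gamma subunit, rose with ATRA from 8.61 and 10.2 to 152 and 148 CPM in SKNO-1 (log2 fold change 4.03 ± 0.08, adjusted p = 4.11e-07) and from 19.3 and 20.5 to 284 and 273 CPM in U-937 (3.80 ± 0.11, adjusted p = 8.26e-18). PIK3CG, the phosphoinositide 3-kinase that these receptors engage, rose with both agents from 61.3 and 70.3 to 323 and 312 CPM in SKNO-1 and from 186 and 200 to 1830.5 and 2079.8 CPM in U-937 (2.32 ± 0.07 and 3.35 ± 0.12, adjusted p = 4.86e-07 and 8.92e-17). PLCB2, a phospholipase C, rose with ATRA in both lines (1.67 ± 0.11 and 2.10 ± 0.11), while the RGS genes, which dampen G protein signals, moved both ways. RGS18 fell with both agents in SKNO-1 (-1.31 ± 0.13, adjusted p = 0.000143). RGS2 rose with Corin in SKNO-1 (1.04 ± 0.13, adjusted p = 0.000612) and with both in U-937 (2.80 ± 0.24, adjusted p = 4.18e-10). RGS1 fell with ATRA in SKNO-1 (-1.17 ± 0.20, adjusted p = 0.0109) and rose with Corin in U-937 (1.66 ± 0.24, adjusted p = 2.06e-05).

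Of the 14 other members of the system, including scavenging receptors, 5 passed the filter in each line. CCRL2, an atypical receptor, rose with both agents in SKNO-1 (1.07 ± 0.18, adjusted p = 0.00194) and U-937 (3.16 ± 0.17, adjusted p = 5.92e-14). So did the scavenger ACKR2 (3.53 ± 0.37 and 1.98 ± 0.29). MIF, a cytokine that binds CXCR4 and CXCR2, fell with both in U-937 (-1.69 ± 0.16, adjusted p = 1.37e-09).

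Of 22 tested genes of the NF-kappaB pathway, 3 rose and 3 fell with ATRA, 6 and 2 with Corin, and 8 and 2 with both in SKNO-1, and 10 and 1, 6 and 0, and 16 and 1 in U-937. In the same order these are 27.3%, 36.4% and 45.5% of the list in SKNO-1 and 50.0%, 27.3% and 77.3% in U-937, beside the shares of all genes given above, and with Corin and both in SKNO-1 they lie near those shares. The list's median with both agents stood at 0.33 for SKNO-1 and 0.78 for U-937. TNF, a cytokine and NF-kappaB target, was lower with ATRA in SKNO-1 (-2.73 ± 0.37, adjusted p = 0.00313) and higher in U-937 with Corin (1.33 ± 0.29, adjusted p = 0.00274) and with both agents (2.75 ± 0.28, adjusted p = 6.73e-09). TRAF1, an NF-kappaB target, was higher with both agents in SKNO-1 (2.93 ± 0.19) and U-937 (2.98 ± 0.25). NFKB1 was lower with both agents in SKNO-1 (-0.67 ± 0.06, adjusted p = 9.7e-05) and U-937 (-0.52 ± 0.10, adjusted p = 5.71e-05). NFKBIA was lower with both in SKNO-1 (-0.33 ± 0.12, adjusted p = 0.0496). Of 11 tested interferon response genes, 2 rose and 1 fell with ATRA, 4 and 1 with Corin, and 5 and 1 with both in SKNO-1, and 9 and 0, 6 and 1, and 10 and 0 in U-937. These are 27.3%, 45.5% and 54.5% of the list in SKNO-1 and 81.8%, 63.6% and 90.9% in U-937, beside the same shares of all genes. The list's median with both agents stood at 0.71 for SKNO-1 and 3.09 for U-937. IRF1, an interferon-induced transcription factor, rose with both agents in SKNO-1 (2.17 ± 0.11) and U-937 (4.11 ± 0.11). Of the interferon-induced chemokines, CXCL9 and CXCL10 did not pass the filter on low counts in either line. CXCL11, of the same class, passed it in U-937 only and was called higher there with Corin and with both agents.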

How the data were processed

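Total RNA of the 16 libraries was sequenced as paired 100 bp reads, per the labels' protocols; Trimmomatic, STAR, RSEM, deepTools and DESeq2 and the build hg38 are named per the submitters' processing notes, with versions, annotation release and strand setting not given in the sources used here. The deposited values are RSEM expected counts per gene and TPM, per the file headers, and the authors' DESeq2 tables hold log2 fold changes and adjusted p-values. Rounding the expected counts to integers moved a library total by at most 42.0 counts, and 0 sample columns were left unused. Strand use matters here because 10 of the 29 tested members overlap a gene on the opposite strand.

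Tests used edgeR 4.0.16 (quasi-likelihood, robust; limma 3.58.1, R 4.3.3) with TMM scaling, its default filter on low counts and Benjamini-Hochberg adjustment over all genes tested, at an adjusted p under 0.05. Each line was fitted with its 8 libraries (17479 genes passed the filter for SKNO-1 and 17717 for U-937). Differences between lines were fitted with all 16 (19872 genes). The procedure was tested on simulated data. CPM are counts scaled to the TMM-adjusted library total, folds are ratios of a group's summed counts over its summed adjusted totals, and intervals and the floor of 3 counts cover counting error only. Alternatives were DESeq2 1.42.0, library totals only, no low-count filter, a replicate block, leaving out each library, fitting only the 4 libraries compared and, chosen after seeing the data, removing a GC trend. The gene family and its name rule, the gene lists and the tests were chosen with earlier results of these data known. Members reaching 5 CPM in a group mean are described in full and those called at lower levels briefly; at most 3 called genes of each other list and direction, by size of change, could be named. Gene positions come from GENCODE release 44, and promoters from RefSeq; protein sequences were not used here. Of the 61 members, 1 is counted in the totals but not reported by name here or drawn in the figures.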

Additional observations from a re-analysis of the deposited data

Results flagged for a closer look

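The results below were picked out because a treatment effect on a member differed between the lines by the test of the difference itself in the fit of all 16 libraries (edgeR's quasi-likelihood test, adjusted p under 0.05 over all genes). Each value is the log2 effect in U-937 minus that in SKNO-1. A line and its medium cannot be told apart in these values. With Corin and with both agents, 13.8% and 41.4% of the tested members were called, near the 12.8% and 40.6% of all genes.

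With ATRA, the differences of CXCR4 (1.39), CXCR5 (6.99), CCR1 (2.14) and CCL2 (-3.74) held in every alternative run. Those of CCL24 (3.80), CCL23 (4.18), CX3CR1 (3.04), CCR3 (-3.04), CCL4L2 (6.72), CCL5 (-0.89) and CXCL2 (2.01) were lost in at least 1. CXCL2 was the least stable of these, lost without any 1 of 12 libraries.

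With Corin, CX3CR1 (-3.77) and CXCR2 (-1.29) held in every alternative run, CCL2 (2.99) was lost without SKNO-1 DMSO replicate 1, and CXCL16 (-5.31) was lost in 2 alternatives.

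With both agents, CXCR4 (1.42), CXCR5 (7.03), CCR3 (-3.94), CCR4 (-7.81) and CCL5 (-1.91) held in every alternative run. CCL2 (-2.21), CCR1 (1.60) and CCL23 (3.42) were each lost without 1 library, and CCR2 (-2.69), CXCL16 (-4.07), CXCR2 (-0.56) and CCL24 (2.76) in several alternatives.

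The sizes for CXCR5, CCL24, CCL4L2, CCR3, CCL23, CXCL16, CX3CR1 with ATRA, and CCR2 and CCR4 with both agents rest on at least 1 group with 0 to 3 counts over its 2 libraries, where a fitted value depends on the model's prior count and is no bound.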

How the results depend on the processing

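Of 199 calls on single members, 146 held in every alternative run, 53 were lost in at least 1, and 0 reversed direction; DESeq2 gave no adjusted p for 8 of the calls. All 22 calls of both agents against DMSO in U-937 held in every alternative, whereas 3 of 7 did for ATRA in SKNO-1. Fitting only the 4 libraries compared gave 3 members for ATRA and 9 for Corin in SKNO-1, and 12 for the combination against Corin, which was 11 without the filter on low counts and 11 after GC correction. Departures from the sum in SKNO-1 numbered 2 without that filter and 0 under the replicate block, and DESeq2 called 6 for Corin in U-937, where it gave no adjusted p for the 5 others and lost none of the calls it tested.

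In SKNO-1 the share of all genes called also moved when 1 library was left out. It is given above for ATRA, for both against Corin and for departures from the sum. For the other comparisons it is not given here, so their ranges below describe counts only. Leaving out 1 library at a time gave these ranges of called members. In SKNO-1 they were 4 to 9 for ATRA, 8 to 15 for Corin, 13 to 20 for both, 13 to 18 for both against ATRA, 5 to 11 for both against Corin and 0 to 5 for departures from the sum. In U-937 they were 15 to 17, 8 to 11, 22 to 23, 14 to 18, 16 to 19 and 4 to 7 in the same order. Between the lines they were 19 to 21 for the DMSO level and 7 to 11, 2 to 5 and 7 to 12 for the effects of ATRA, Corin and both.

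Pairing of the libraries by replicate number was not shown: deviations of same-numbered libraries correlated between groups at -0.473 to 0.402. The differences within replicate pairs also went with GC content, at r from -0.412 in SKNO-1 with ATRA to 0.794 in SKNO-1 with DMSO. These correlations therefore cannot decide whether the libraries were paired. With the replicate block, the counts in SKNO-1 were 7, 14, 15, 15, 5 and 0 and in U-937 17, 10, 22, 17, 18 and 6, in the order above; both CXCL8 calls in SKNO-1, against Corin and as a departure, ended under it. Scaling by library totals only moved the median log2 change of all genes from 0.03 to -0.09 for both agents against DMSO in U-937, from 0.02 to -0.11 for both against Corin in U-937, from -0.11 to -0.26 for the line difference in the effect of both agents and from -0.01 to 0.15 for the DMSO level. With 2 libraries a group, members at 0 to 3 counts in a group have bounds or counting intervals in place of a measured fold.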
